A study of Rattus norvegicus with 138 samples.

Results

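Injured tibialis anterior (TA) muscle was compared at 3 days post injury (DPI) with the uninjured TA of the other leg of operated rats, called contralateral muscle here. The labels put 14 of the 138 samples of the series in this comparison. They are 10 injured muscles (3 labelled NoRepair and 7 labelled MMG) and 4 contralateral muscles (2 from NoRepair and 2 from MMG rats), all from rats labelled NoRun. The question here was which changes of injured muscle depend on using this operated-rat reference, so 4 control muscles of day 0 were carried in the same model as the other possible reference. Each of the 14 operated-rat libraries and the 4 control libraries held more than 7000 gene symbols above 1 TPM (a transcript level corrected for length and scaled to the total of each library), the minimum set for a library to be used.

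All rats were male Lewis rats of an inbred strain, about 4 months old. In operated rats a full-thickness piece of the middle of the left TA was removed with a biopsy punch (volumetric muscle loss, VML), and in MMG rats that piece was minced and put back as an autologous graft. The contralateral muscle of either arm was neither cut nor grafted, so repair was coded as a covariate of the rat. Of the 10 injured rats, 4 also gave their contralateral muscle. The control muscles are labelled Sham and described by the study as unoperated, and they are the left and right TA of only 2 rats. All control rats carry numbers of one rat series and all operated rats numbers of another, so operation and rat series cannot be told apart in any comparison with control muscle. Total RNA came from homogenized whole muscle, so fewer cells of a type and less RNA per cell cannot be told apart. No counts were used, so the depth behind each value is unknown.

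A muscle injury draws neutrophils and then macrophages into the tissue within days, and fibroblasts lay down matrix around the defect while fibres die and regenerate. An operation also reaches muscle that was not cut, for example through blood-borne cytokines and stress hormones such as glucocorticoids. In skeletal muscle, glucocorticoids and fasting are known to raise the ubiquitin ligases Fbxo32 (atrogin-1) and Trim63 (MuRF1), which mark contractile proteins for breakdown. Acute inflammation is known to raise metallothioneins and to change the handling of iron. A contralateral muscle shares such whole-body changes with the injured one, and a comparison within the rat would take shared changes out of the difference. The main model here compared groups without a term for the rat, and 4 of the 10 injured rats gave both muscles.

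The libraries differed in kind before any gene was tested. Injured muscles held 10475 to 10744 symbols above 1 TPM, contralateral muscles 9320 to 9736 and control muscles 7866 to 8914, with no overlap, and the median gene was 0.64 (log2) higher in injured than in contralateral muscle and 0.45 higher in contralateral than in control muscle. Median-of-ratios size factors brought these medians to 0.07 and 0.01, and values with size factors are given below beside many of the counts. The summed TPM of 6 fibre genes (Ckm, Acta1, Myh4, Mylpf, Tnnt3 and Pvalb) was 19137 to 48458 in injured, 140452 to 157868 in contralateral and 176541 to 231934 in control muscle, so every library was muscle. Macrophage markers summed to 1479 to 2982 TPM, 34.4 to 64.5 and 12.1 to 18.2 in the same order, and those of neutrophils to 63.9 to 431, 8.71 to 106 and 1.21 to 5.66. Beyond these, one muscle of each reference group stood apart. The contralateral muscle of NoRepair replicate 2 was the lowest of its 4 in 56.7% of tested genes, and control replicate 4, a right TA, in 80.2%. Counts and genes that moved without them are given so below.

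Relative to contralateral muscle, 3978 of 10934 tested genes were called higher in injured muscle and 726 lower (adjusted p under 0.05 in limma with Benjamini-Hochberg adjustment and a log2 fold change beyond 1), or 36.4% and 6.64% of the genes tested. Against control muscle the same 10 injured muscles gave 5799 genes called higher and 531 called lower, 53.0% and 4.86%. With size factors the split was more even, 2398 higher and 1651 lower against contralateral and 2812 and 2067 against control muscle. The references themselves differed in 791 genes called higher and 7 called lower in contralateral than in control muscle, 7.23% and 0.0640%. With size factors the counts were 300 higher and 60 lower. This last difference is the test of whether a change depends on the reference, because for each gene it equals the change against control minus the change against contralateral muscle, with the injured muscles dropping out.

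The genes that changed most against contralateral muscle were called with either reference. Spp1, which encodes the secreted matrix protein osteopontin, ran from 1215 to 4973 TPM in injured muscle with a median of 3200, and was 1.28, 1.89, 0.64 and 3.07 TPM in the contralateral and 0.50, 0.68, 0.73 and 0.29 TPM in the control muscles. Its log2 fold change was 10.11 ± 0.28 (SE, adjusted p = 1.6e-15) against contralateral and 10.85 against control muscle. Trem2, a receptor of macrophages, changed by 6.49 and 6.88, Tnnt2, the troponin T of heart and embryonic muscle, by 6.42 and 7.00, and Cd8a, a T cell and dendritic cell marker, by 6.04 and 6.28. These 4 were not called between the references, whereas the other 6 of the 10 that rose most were higher in contralateral than in control muscle (Hmox1, Gpnmb, Mt1, Timp1, Lilrb4 and Ankrd1), by 1.11 to 2.57. Among the genes that fell most, Myl2, the slow regulatory light chain, went from 734.72, 786.85, 932.21 and 858.85 TPM in contralateral muscle to 7.54 to 143 TPM (median 28.4) in injured muscle. It fell by 4.64 ± 0.63 on the log2 scale against contralateral (adjusted p = 2.1e-06) and by 3.40 against control muscle. Mylk2, the light chain kinase of skeletal muscle, fell by 3.73 and 3.39 and Aqp4, a water channel of fast fibres, by 3.65 and 3.67, and neither was called between the references. Of the 10 that fell most, Myoc (myocilin), a secreted glycoprotein, was the one that was. It was 116.06, 38.80, 70.87 and 75.52 TPM in contralateral and 7.32 to 26.6 TPM in control muscle, and fell by 3.43 against contralateral and by 1.40 against control muscle. Within the 4 rats that gave both muscles, 3963 of the 3978 genes called higher were higher in the injured leg of all 4 rats and 718 of the 726 called lower were lower in all 4. Over all tested genes these shares were 63.8% and 18.9%.

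The repair arms could not be told apart at this size. No gene was called for a difference between the arms in the injured against contralateral change in limma, with 137 genes at an unadjusted p under 0.05. The test has only 2 contralateral muscles per arm, so it does not show that the arms responded alike.

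Of the 798 genes called between the references, 522 were called in injured muscle against both of them in the same direction, and none in opposite directions. For the 517 of these that rose in injured muscle, the median log2 fold change was 2.66 against contralateral and 4.0 against control muscle. Another 184 were called against control muscle alone, 23 against contralateral muscle alone and 69 against neither. Without control replicate 4 these classes held 94 against control alone and 13 against contralateral alone, and without contralateral NoRepair replicate 2 the latter held 41. With size factors they held 80 and 24. The 180 control-alone genes that were higher in contralateral than in control muscle had a median change of 0.46 against contralateral and 1.77 against control muscle. The 23 contralateral-alone genes were all higher in contralateral than in control muscle and all lower in injured than in contralateral muscle, with medians of -1.44 against contralateral and 0.07 against control muscle. The injured and contralateral muscles did not overlap in 17 of the 23, beside 71.4% of all tested genes, and 20 of the 23 were lower in the injured leg of all 4 rats with both muscles. The class follows from the same values that called the gene, so these medians are a description.

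**Figure D1:**
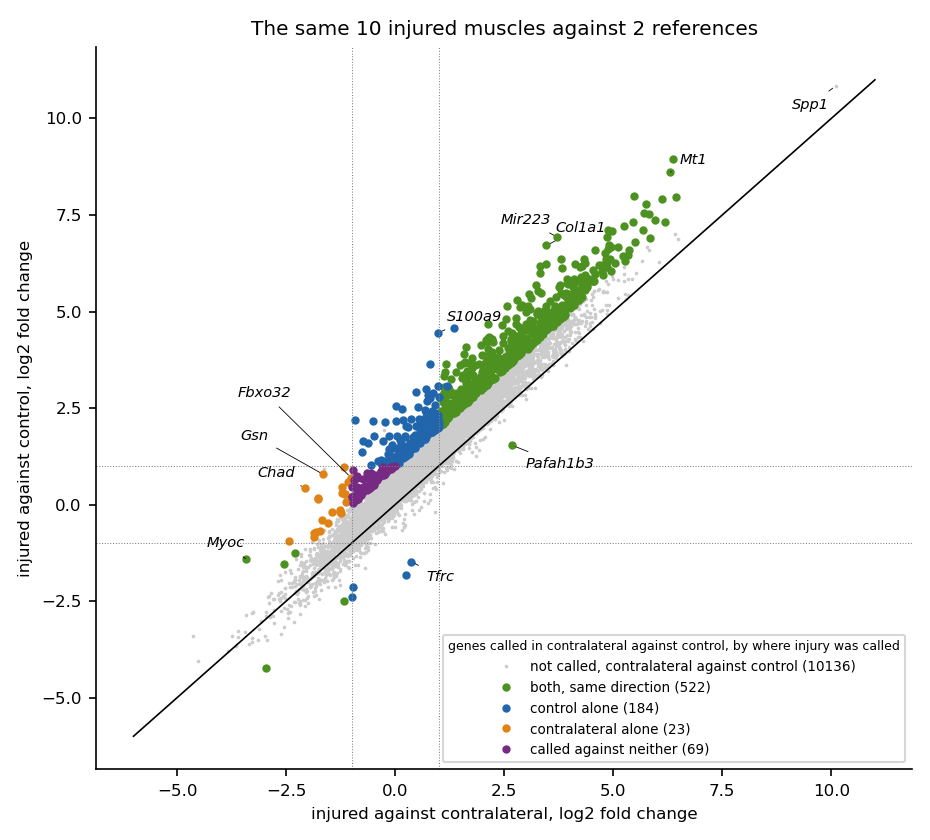
Log2 fold change of 10934 genes in the same 10 injured muscles against 4 contralateral muscles (x axis) and against 4 control muscles (y axis), with genes called between the references coloured by where injury was called, the solid line marking equal change and dotted lines marking a log2 fold change of 1 in either direction. Most coloured points lie above the line, where contralateral muscle is higher than control muscle, and Tfrc and Pafah1b3 are among the few below it.

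The neutrophil genes S100a8 and S100a9 were called in injured muscle against control but not against contralateral muscle. S100a9 encodes a subunit of calprotectin, a calcium- and zinc-binding protein that neutrophils carry in large amounts. It ran from 35.9 to 229 TPM in injured muscle (median 62.2), and was 59.16, 6.06, 62.82 and 60.18 TPM in the contralateral muscles of NoRepair replicates 1 and 2 and MMG replicates 1 and 2. In control muscle it was 3.02, 3.06, 3.93 and 0.40 TPM. Contralateral and control muscles did not overlap, while 3 of the 4 contralateral muscles lay inside the injured range. Its log2 fold change was 4.45 ± 0.58 against control (adjusted p = 8.6e-07) and 0.99 ± 0.58 against contralateral muscle (adjusted p = 0.13), and the references differed by 3.46 ± 0.69 (adjusted p = 0.00078). Erythroid markers, which follow the blood left in a muscle, summed to 1195 to 9112 TPM in contralateral, 1848 to 5137 TPM in control and 3793 to 88206 TPM in injured muscle. The contralateral muscle low in S100a9 was also the lowest in Alas2, the heme synthesis enzyme of red cells, at 1.84 TPM against 10 to 16.89 TPM in the other 3 and 3.45 to 9.61 TPM in control muscle. The part of blood in the neutrophil genes was not tested. Without the low contralateral muscle of NoRepair replicate 2, the references differed by 4.25. In the non-repaired arm alone, which holds that muscle and 1 other, they differed by 2.66 (limma adjusted p = 0.0687). S100a8, Sfrp2, Chad, Adipoq, Mir3120, Mir1956 and Hmgn5, all described below, also lost this call in that arm alone, with differences of 1.66 to 2.52 and, for Hmgn5, -1.72. S100a8, the partner subunit, was 39.47, 2.17, 37.59 and 40.61 TPM in contralateral and 0.70 to 1.60 TPM in control muscle, with changes of 4.58 against control and 1.35 against contralateral muscle (adjusted p = 0.065 for the latter).

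Of 18 neutrophil markers with values, only 10 had a group mean above 1 TPM and were tested. A marker could pass this filter through injured muscle alone. Of these 10, 9 were called higher in injured than in control muscle and 3 in injured than in contralateral muscle, with medians of 2.29 and 0.92. Between the references 4 were called higher in contralateral muscle (S100a8, S100a9, Csf3r and Np4), which is 40.0% of those tested against 7.23% of all tested genes. The count was 7 without the contralateral muscle of NoRepair replicate 2. Csf3r, the receptor for granulocyte colony-stimulating factor, rose against both references (2.16 and 3.39), and Np4, a neutrophil defensin, against control alone (1.62 and 0.46). The members did not move alike. Lcn2, an iron-scavenging protein of neutrophil granules, was 2.24 to 3.05 TPM in contralateral and 0.74 to 2.54 TPM in control muscle and was not called between the references (0.36). Mmp9, the gelatinase of neutrophil granules, reached at most 0.28 TPM in contralateral muscle against 3.54 to 17.8 TPM in injured muscle.

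**Figure D2:**
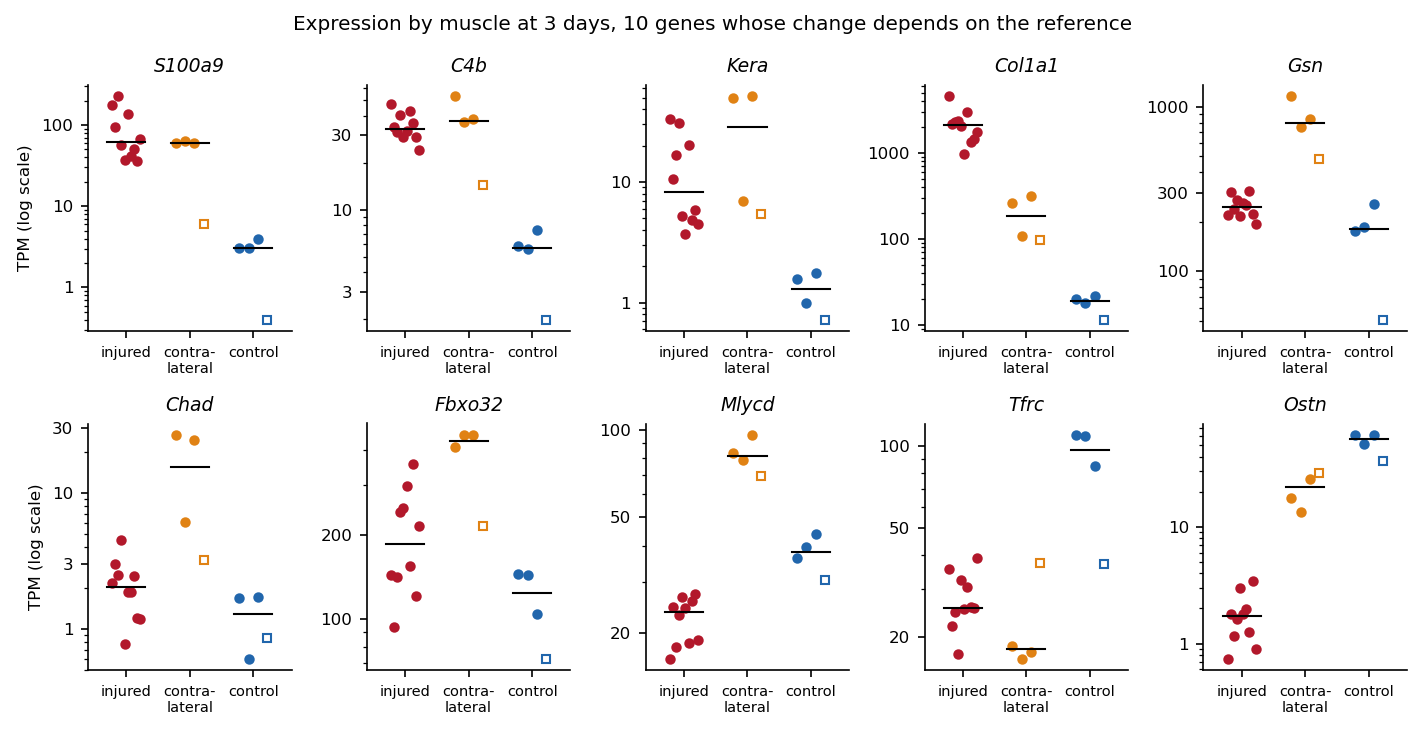
TPM (log axis) of 10 genes in each of the 10 injured (red), 4 contralateral (orange) and 4 control (blue) muscles, with bars at group medians and open squares for contralateral NoRepair replicate 2 and control replicate 4. S100a9 and C4b have injured and contralateral muscles at like levels, Gsn, Chad, Fbxo32 and Mlycd are highest in contralateral muscle, and Tfrc is high in 3 of 4 control muscles.

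C4b, a component of the classical complement pathway, was also called against control alone. It was 24.0 to 47.7 TPM in injured (median 33.0), 53.57, 14.48, 36.45 and 37.82 TPM in contralateral and 5.86, 5.58, 7.47 and 1.98 TPM in control muscle. Its change was 2.55 ± 0.28 (adjusted p = 7.8e-08) against control and 0.03 ± 0.28 (adjusted p = 0.93) against contralateral muscle. The contralateral muscles lay around the injured ones and all above the control ones. Among chemokines, Ccl21, Ccl24 and Cxcl12 were likewise called against control alone, at 2.99, 2.0 and 1.93 against 0.71, 0.80 and 0.88. Of 37 tested inflammatory cytokines and chemokines, 33 were called higher against contralateral and 36 against control muscle, and 12 (32.4%) between the references. With size factors these counts were 27, 29 and 8. Il6 and Cxcl1 were not called between the references, at -0.01 and 0.15.

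Interstitial matrix genes differed most often between the references. Of 39 tested members, 35 (89.7%) were called higher in contralateral than in control muscle, 28 with size factors, 34 without contralateral NoRepair replicate 2 and 30 without control replicate 4. The list median was 1.68 between the references, 3.31 in injured against contralateral and 4.79 against control muscle, beside 0.45, 0.64 and 1.08 over all tested genes. Col1a1, the main chain of type I collagen, was 957 to 4624 TPM in injured muscle (median 2095), 261.96, 97.64, 107.00 and 312.51 TPM in contralateral muscle and 19.63, 18.09, 21.48 and 11.38 TPM in control muscle. The 3 groups did not overlap. Its change was 3.47 ± 0.35 against contralateral and 6.71 ± 0.35 against control muscle, and 3.24 ± 0.41 between the references (adjusted p = 3.2e-05). Col1a2, the second chain of the same collagen, behaved alike (3.31, 6.18 and 2.87), as did Sfrp2, a secreted Wnt regulator of fibroblasts (3.45, 6.23 and 2.77), although Sfrp2 was only 0.88 TPM in contralateral NoRepair replicate 2 against 6.71 to 18.18 TPM in the others.

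A few matrix genes, among them Kera, Fmod and Chad, were not called higher against contralateral muscle. Kera (keratocan), a small leucine-rich proteoglycan of tendon and cornea, was 3.71 to 33.0 TPM in injured muscle, 49.91, 5.39, 6.96 and 51.91 TPM in contralateral muscle and 0.72 to 1.77 TPM in control muscle. It changed by 2.19 against control and by -0.93 ± 0.60 against contralateral muscle (adjusted p = 0.16), and by 3.11 between the references (adjusted p = 0.002). The contralateral muscles split into high and low pairs that followed neither repair arm. Fmod (fibromodulin), also of tendon, split the same way at 57.48, 12.69, 11.16 and 51.52 TPM, and Chad (chondroadherin), a collagen-binding protein of cartilage and tendon, at 26.88, 3.20, 6.13 and 24.73 TPM. Fmod and Ogn (osteoglycin) were the 2 listed matrix genes called against control alone. Chad was called against contralateral muscle alone, at -2.06 ± 0.40 (adjusted p = 0.00013) against 0.43 with the control reference. How much tendon each dissected muscle carried was not tested.

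Macrophage markers rose in injured muscle against either reference, in 23 of 23 tested, with medians of 4.52 and 5.77. Between the references 15 (65.2%) were called higher in contralateral muscle, 13 with size factors, and the list median was 1.43. Cd68, a lysosomal protein of macrophages, was 275 to 513 TPM in injured, 6.42, 3.62, 5.76 and 6.39 TPM in contralateral and 0.77 to 1.39 TPM in control muscle, so the change of 5.83 against contralateral became 7.54 against control muscle. C1qa, a chain of the complement starter C1q, was 26.01 to 58.34 TPM in contralateral and 6.82 to 9.87 TPM in control muscle, a difference of 2.39 ± 0.21 (adjusted p = 3.7e-06). Trem2, described above, was the other kind, under 1 TPM in every muscle of either reference.

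**Figure D3:**
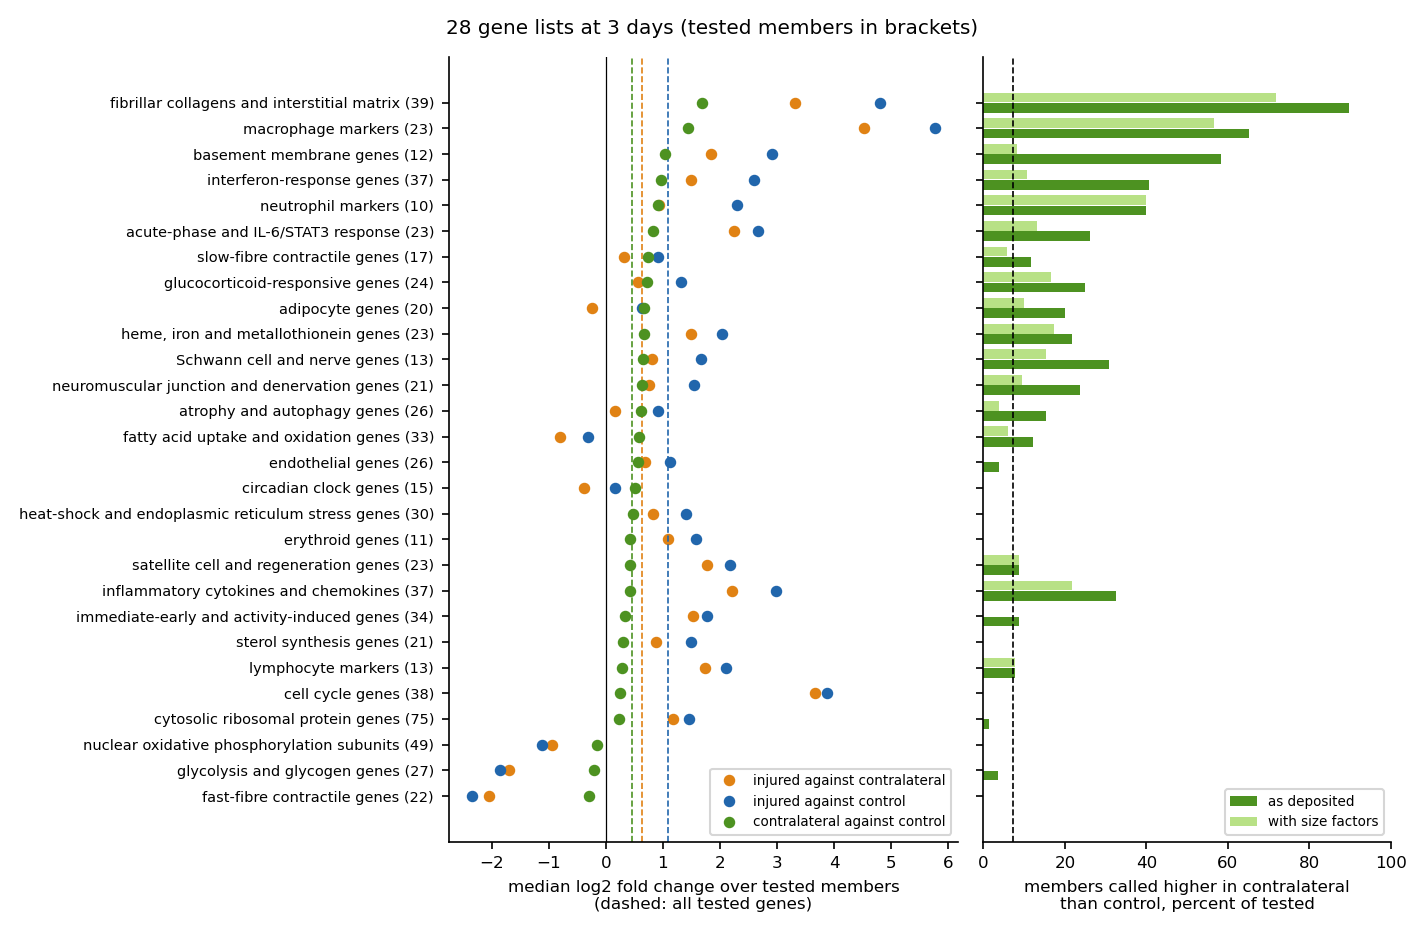
Left, median log2 fold change over the tested members of 28 gene lists (number tested in brackets) for injured against contralateral, injured against control and contralateral against control muscle, with dashed lines at the medians of all tested genes. Right, percent of the tested members called higher in contralateral than in control muscle with values as deposited and with size factors, beside a dashed line at 7.23% of all tested genes. The matrix and macrophage lists lie farthest right in both settings, while the interferon and basement membrane lists lose most of their calls with size factors.

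Most interferon-response genes were called higher with either reference, but their counts were sensitive to scaling. Of 37 tested, 29 were called higher against contralateral and 36 against control muscle, and with size factors 13 and 29. Between the references 15 (40.5%) were called higher in contralateral muscle, with size factors 4, and the count was 24 without contralateral NoRepair replicate 2 and 9 without control replicate 4. Irf7, a transcription factor that amplifies type I interferon output, was 22.59, 5.78, 11.47 and 24.67 TPM in contralateral and 2.22 to 4.02 TPM in control muscle, with a change of 1.55 against contralateral and 3.36 against control muscle. Mx2, an antiviral GTPase, was called against control alone, at 2.33 against 0.92. Between days in the contralateral muscle, described further on, 10 of the 37 were called higher at 3 than at 14 and 28 DPI in non-running rats and none between 3 and 14 DPI in running rats.

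Metallothioneins, small zinc- and copper-binding proteins, rose strongly in injured muscle and were also higher in contralateral than in control muscle. Mt1 ran from 852 to 1475 TPM in injured muscle with a median of 1299. It was 15.93, 11.93, 18.60 and 12.02 TPM in contralateral and 2.06, 3.26, 3.56 and 0.60 TPM in control muscle, with no overlap between the 3 groups. Its change was 6.31 ± 0.22 against contralateral, 8.61 ± 0.22 against control muscle and 2.30 ± 0.26 between the references (adjusted p = 1.4e-05). Mt2A changed by 5.46, 7.32 and 1.86. Mtf1, the zinc sensor that binds metal response elements, was 7.68 to 8.98 TPM in contralateral and 3.41 to 6.42 TPM in control muscle, and at 0.53 it was not called between the references.

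The Mt1 and Mt2A promoters are shown because both genes moved together in every muscle group and their metal response elements are known. Each run is 300 bases of RefSeq sequence of build GRCr8, from 250 before to 50 after the start of the gene, at chr19:10832926-10833225 for Mt1 and chr19:10838659-10838958 for Mt2A, both on the minus strand. Capitals mark matches to the metal response core, TGCACNC or TGCGCNC, on either strand.
Mt1: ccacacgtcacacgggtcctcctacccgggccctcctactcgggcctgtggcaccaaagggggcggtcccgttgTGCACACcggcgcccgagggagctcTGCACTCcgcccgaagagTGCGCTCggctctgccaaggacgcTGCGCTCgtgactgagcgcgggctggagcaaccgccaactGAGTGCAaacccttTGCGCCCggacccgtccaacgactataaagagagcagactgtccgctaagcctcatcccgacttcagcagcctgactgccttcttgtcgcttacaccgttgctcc
Mt2A: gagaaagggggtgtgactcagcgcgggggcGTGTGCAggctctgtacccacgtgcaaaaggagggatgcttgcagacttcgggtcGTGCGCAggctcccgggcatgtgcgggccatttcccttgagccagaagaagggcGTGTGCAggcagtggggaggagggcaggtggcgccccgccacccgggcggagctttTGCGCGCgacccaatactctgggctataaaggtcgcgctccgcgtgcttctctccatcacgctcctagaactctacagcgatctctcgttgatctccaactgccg
The Mt1 run holds 6 matches and the Mt2A run 4. Of 27457 rat promoters of this length, 25.0% hold at least 1 match and 0.455% at least 4. A match is a run of letters and not a measured binding site.

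Iron genes moved both ways. Tfrc, the transferrin receptor that takes up iron, was one of only 7 genes called lower in contralateral than in control muscle. It was 18.50, 37.19, 16.57 and 17.55 TPM in contralateral muscle, 17.3 to 38.9 TPM in injured muscle (median 25.6), and 110.39, 109.64, 84.37 and 37.06 TPM in control muscle. Contralateral NoRepair replicate 2 and control replicate 4 met at the same level, and the other muscles of the references lay apart. Tfrc fell by 1.48 ± 0.27 against control muscle (adjusted p = 4.2e-05) and changed by 0.37 ± 0.27 against contralateral muscle (adjusted p = 0.21). Between the references it fell by 1.84 ± 0.31 (adjusted p = 0.00026), and by 2.11 and 2.20 without either of the muscles that met. Hmox1, which opens heme and frees its iron, rose by 6.44 and 7.96 against the references in turn, and Ftl1, the ferritin light chain, by 4.35 and 5.55.

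The other genes called lower in contralateral muscle included Ostn (musclin), a secreted peptide of active muscle. It was 17.87, 28.91, 13.30 and 25.82 TPM in contralateral, 61.75, 51.18, 61.32 and 36.52 TPM in control and 0.74 to 3.41 TPM in injured muscle. Its change was thus larger against control, at -4.24, than against contralateral muscle, at -2.96. Pafah1b3, a catalytic subunit of a platelet-activating factor acetylhydrolase, was the one gene named here that was lower in contralateral (1.07 to 3.02 TPM) than in control muscle (3.66 to 6.85 TPM) yet rose in injured muscle (13.3 to 25.4 TPM). Its change was therefore larger against contralateral (2.68) than against control muscle (1.54). Hmgn5, Odf3l2 and Iqcg were called lower in injured muscle against control alone, at -1.83, -2.40 and -2.15, beside 0.26, -1.0 and -0.96 against contralateral muscle.

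Fbxo32 was called lower in injured muscle against contralateral muscle alone. It was 409.80, 213.87, 452.64 and 451.99 TPM in contralateral muscle, 145.19, 143.09, 104.72 and 72.36 TPM in control muscle and 94.2 to 356 TPM in injured muscle (median 184). Contralateral NoRepair replicate 2 lay inside the injured range and the other 3 contralateral muscles lay above it. Fbxo32 fell by 1.01 ± 0.31 against contralateral muscle (adjusted p = 0.0069), but against control muscle it changed by 0.69 ± 0.31 (adjusted p = 0.047, under the fold limit). The references differed by 1.70 ± 0.37 (adjusted p = 0.0015), by 1.10 with size factors, and by 1.39 in the non-repaired arm alone, where the call was lost (limma adjusted p = 0.079).

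Trim63 did not follow Fbxo32 within these muscles. It was 325.87, 326.29, 448.45 and 332.04 TPM in contralateral, 224.15, 257.47, 231.73 and 125.84 TPM in control and 225 to 824 TPM in injured muscle. It rose by 1.19 ± 0.27 against control and changed by 0.39 ± 0.27 against contralateral muscle (adjusted p = 0.19), and the references differed by 0.81 ± 0.31 (adjusted p = 0.036), under the fold limit. Over the list, 5 of 26 tested atrophy and autophagy genes were called higher and 6 lower against contralateral muscle, and 11 higher and 3 lower against control muscle. With size factors the references gave like counts, 4 higher and 9 lower against contralateral and 4 higher and 8 lower against control muscle. Between the references 4 (15.4%) were called higher in contralateral muscle and with size factors 1. The count was 2 without control replicate 4 and 7 without contralateral NoRepair replicate 2. Map1lc3b and Sqstm1, carriers of autophagy, changed by -0.04 and -0.07 against contralateral and by 0.87 and 0.86 against control muscle.

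The Trim63 promoter is shown because its glucocorticoid receptor and FOXO sites are known to lie side by side, the Fbxo32 promoter being named only. The stretch is the first 80 bases of the RefSeq promoter, at chr5:151816986-151817065 of GRCr8 on the plus strand. Capitals mark TGTTCT, 211 bases before the start of the gene, followed directly by TGTTTAC, 205 bases before it.
Trim63: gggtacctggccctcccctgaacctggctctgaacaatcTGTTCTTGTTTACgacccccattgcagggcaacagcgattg
Searched on both strands, TGTTCT occurs in 20.1% and TGTTTAC in 3.76% of the 27457 promoters.

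Of 24 tested glucocorticoid-responsive genes, 6 (25.0%) were called higher in contralateral than in control muscle and with size factors 4. They were Fbxo32, Klf15, Gadd45a, Mt1, Mt2A and Angptl4, and without control replicate 4 the count was 4. Fkbp5 and Tsc22d3, which follow glucocorticoids in most tissues, were not among them, at 0.38 and 0.65, and nor was Per1 at 0.16. Klf15, a transcription factor of amino acid breakdown, fell by 2.30 against contralateral and by 1.26 against control muscle. Mstn (myostatin), the secreted brake on muscle growth, was 29.59 to 53.99 TPM in contralateral, 11.78 to 25.52 TPM in control and 3.78 to 9.25 TPM in injured muscle, and so fell by 2.56 against contralateral and by 1.54 against control muscle. Both were called between the references at 1.04 and 1.02 and lost that call without control replicate 4.

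Genes tied to nerve supply rose in the contralateral muscle in part. Of 21 tested, 5 (23.8%) were called higher there than in control muscle, with a count of 2 under size factors and of 3 without control replicate 4. They were Myog, Gadd45a, Hdac4, Ankrd1 and Fbxo32, of which Gadd45a and Fbxo32 also belong to the glucocorticoid-responsive list. Myog (myogenin), a transcription factor of differentiating and denervated fibres, was 18.65 to 24.27 TPM in contralateral, 2.44 to 8.0 TPM in control and 189 to 606 TPM in injured muscle. Sln (sarcolipin), a regulator of the calcium pump taken from the slow-fibre list, was 72.92 to 128.18, 14.77 to 32.30 and 1381 to 4191 TPM in the same order. Hdac4, a repressor induced by denervation, was called against control alone, at 1.36 against 0.32. The acetylcholine receptor subunits of immature junctions were not part of this. Chrng was at most 0.34 TPM in contralateral and 0.22 TPM in control muscle against 11.9 to 76.6 TPM in injured muscle, and Chrna1 differed by 0.65 between the references.

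Gsn (gelsolin), an actin-severing protein that is also secreted into plasma, was the most abundant of the 23 genes called against contralateral muscle alone. It was 1167.78, 483.90, 752.97 and 845.08 TPM in contralateral, 193 to 308 TPM in injured (median 246) and 175.41, 185.16, 256.15 and 50.68 TPM in control muscle. All 4 contralateral muscles lay above all 14 others. Gsn fell by 1.64 ± 0.30 against contralateral muscle (adjusted p = 6.2e-05), changed by 0.78 ± 0.30 against control muscle and differed by 2.42 ± 0.35 between the references (adjusted p = 8.8e-05). Obp3, an odorant-binding protein, was 1.54 to 8.77 TPM in contralateral muscle and at most 0.95 TPM in injured and 0.62 TPM in control muscle.

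Adipoq was the 1 of 20 tested adipocyte genes called against contralateral muscle alone. Adipoq (adiponectin), the hormone of adipocytes, was 26.55, 1.06, 3.73 and 11.84 TPM in contralateral muscle, 0.60 to 5.35 TPM in injured and 0.79 to 2.26 TPM in control muscle. It fell by 1.22 ± 0.52 against contralateral muscle (adjusted p = 0.041). It lost its call between the references without control replicate 4, at 1.54 (adjusted p = 0.075). Summed over Adipoq, Plin1, Cfd, Lep and Cidec, adipocyte markers came to 14.1 to 115 TPM in contralateral, 162 to 278 TPM in injured and 3.49 to 10.6 TPM in control muscle, most of it from Cfd. Their part in the changes of other genes was not tested.

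Some others of the 23 were chosen for mention after their values were seen, because several act in fuel and amino acid use. The remaining genes of the 23 are not described, so those named here do not stand for the class. Mlycd, the malonyl-CoA decarboxylase that frees fatty acid entry into mitochondria, was 83.60, 69.46, 79.16 and 96.38 TPM in contralateral, 36.31, 39.57, 43.77 and 30.45 TPM in control and 16.3 to 27.2 TPM in injured muscle. The 3 groups were apart, and Mlycd fell by 1.82 ± 0.14 against contralateral (adjusted p = 8.3e-10) but by only 0.71 against control muscle, under the fold limit. Bcat2, the branched-chain aminotransferase of mitochondria, was 214 to 254 TPM in contralateral and 63.4 to 150 TPM in control muscle and fell by 1.86 and 0.84 in turn. Prodh (proline dehydrogenase) fell by 2.43 and 0.95, Nos1 (neuronal nitric oxide synthase) by 1.67 and 0.39, and Acad11 (an acyl-CoA dehydrogenase) by 1.23 and 0.23. These changes are of values as deposited. Size factors moved the median gene from 1.08 to 0.09 in injured against control muscle, so falls under the fold limit there depend on scaling. Over the list of 33 fatty acid genes tested, 3 were called higher and 8 lower against contralateral, and 5 higher and 3 lower against control muscle. With size factors this difference between the references was gone, at 3 higher and 23 lower against either of them. Between the references 4 (12.1%) were called higher in contralateral muscle and 2 with size factors.

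Fast-fibre and cell cycle genes were called in near-equal numbers with either reference. Of 22 fast-fibre contractile genes, 21 were called lower in injured muscle with either reference and none between the references, with 6 lower in contralateral muscle under size factors. Of 49 nuclear oxidative phosphorylation subunits, 22 were called lower against contralateral and 34 against control muscle and none between the references. With size factors the counts were 48, 49 and 5. Of 17 slow-fibre genes, 6 were called higher and 5 lower against contralateral, 8 higher and 4 lower against control muscle, and 2 higher between the references. In proliferation, of 38 cell cycle genes, 35 and 37 were called higher in injured muscle, at medians of 3.67 and 3.88, and none was called between the references with values as deposited or size factors. Cytosolic ribosomal protein genes depended on scaling in another way. Of 75 tested, 58 were called higher against contralateral muscle as deposited and 3 with size factors.

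The table also holds miRNA genes, of which 5 met the rule for named genes and 4 have RefSeq mature sequences (GRCr8). They are shown 5′ to 3′ with the seed, bases 2 to 8, in capitals. No seed is shared among them. The library kit was one for long RNA, so a value at a miRNA gene covers the hairpin or the host transcript and not the mature miRNA.
rno-miR-223-3p: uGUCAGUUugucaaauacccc
rno-miR-223-5p: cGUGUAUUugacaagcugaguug
rno-miR-3120: cACAGCAAguguagacaggca
rno-miR-1956-5p: aGUCCAGGgcugagucagcgga
rno-miR-1956-3p: uGGCUGGCaccuggacgu
rno-miR-208b-3p: aUAAGACGaacaaaaggu
rno-miR-208b-5p: aAGCUUUUugcucgcguuau
Mir223, whose miRNA is known from neutrophils and other myeloid cells, was listed at 0 in all 4 control muscles. It was 8.90, 3.61, 11.16 and 11.99 TPM in contralateral and 75.5 to 220 TPM in injured muscle, a change of 3.72 ± 0.26 against contralateral muscle (adjusted p = 2.3e-10). The other miRNA genes were listed at 0 in at least 2 control muscles each. Mir3120 overlaps Dnm3 and Mir214 in the annotation, and was 149 to 407 TPM in injured, 11.89 to 28.16 TPM in contralateral and 11.40, 0, 11.39 and 0 TPM in control muscle. Mir208b lies within Myh7, the slow myosin heavy chain gene. It was 5.90, 7.49, 2.35 and 0 TPM in contralateral muscle and was listed at 0 in all 10 injured and all 4 control muscles. Mir1956, which overlaps Eif4e, and Mir3084d were called against control alone, each with 3 control muscles at 0.

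Whether the contralateral difference belonged to 3 DPI was looked at in other contralateral muscles, in a second model of 34 of them. Rats labelled Run, called running rats here, gave 4 contralateral muscles each at 3 and 14 DPI that share no muscle with the comparisons above. In them 477 of 9777 tested genes were called higher at 3 than at 14 DPI and 39 lower, 4.88% and 0.399%, and with size factors 143 higher and 130 lower. Of the 791 genes higher in contralateral than in control muscle, 148 (18.7%) were called higher in running rats at 3 than at 14 DPI and none lower, with 70 higher and 1 lower under size factors. The median change of the 791 was 0.61, beside 0.38 over all genes tested there. The share was 26.6% among the 184 genes called against control alone, 30.4% among the 23 called against contralateral alone and 15.3% among the 522 called against both. With size factors the counts were 28 of 184, 3 of 23 and 32 of 522, in place of 49, 7 and 80.

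In non-running rats the 3 DPI contralateral muscles were set against the 8 of 14 and 28 DPI, which all belong to the series of operated rats. There 230 genes were called higher at 3 DPI and 6 lower, 2.35% and 0.0614%, and with size factors 45 higher and 45 lower. Both directions together came to 236 genes, to 152 without contralateral NoRepair replicate 1 and to 423 without contralateral NoRepair replicate 2. The comparison shares its 4 muscles at 3 DPI with the difference between the references, so it is given side by side only. Of the 791 genes, 172 were called higher there (42 with size factors) and none lower.

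**Figure D4:**
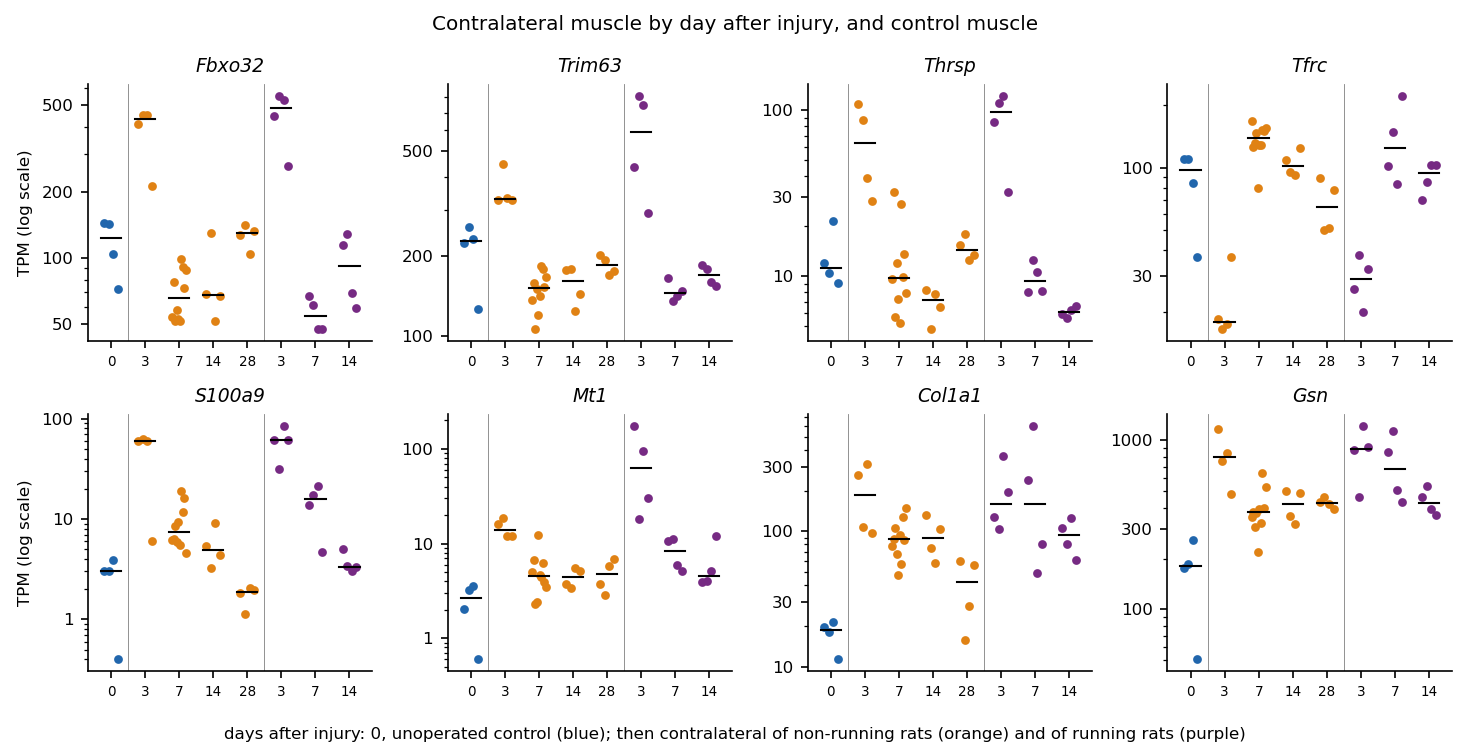
TPM (log axis) of 8 genes in single control muscles (blue) and single contralateral muscles of non-running (orange) and running rats (purple) by day after injury, with bars at medians. Fbxo32, Trim63 and Thrsp are high and Tfrc is low at 3 DPI in both kinds of rat, while Gsn and Col1a1 lie above most control muscles on later days as well.

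A group of genes was higher or lower at 3 DPI than on later days. In running rats the contralateral level of Fbxo32 was 263 to 551 TPM at 3 DPI and 59.3 to 129 TPM at 14 DPI, a difference of 2.27 (adjusted p = 8.0e-08). Non-running contralateral muscles were at 51.5 to 99.5 TPM by 7 DPI (10 muscles) and 105 to 141 TPM at 28 DPI, within or below the control range of 72.4 to 145 TPM. Trim63 was 291 to 809 TPM at 3 DPI and 154 to 186 TPM at 14 DPI in running rats (1.64), although its difference between the references had stayed under the fold limit. Thrsp, a regulator of lipid synthesis, was 32.2 to 121 and 5.58 to 6.63 TPM (3.48). Tfrc fell in the same way, at 20.2 to 37.7 TPM on day 3 and 69.8 to 102 TPM on day 14 (-1.62, adjusted p = 2.3e-06). S100a9 was 31.6 to 84.1 and 3.0 to 5.0 TPM (3.63), and Mt1 18.1 to 174 and 3.89 to 12.1 TPM (3.08). On later days S100a9 was 4.59 to 21.3 TPM in the 14 contralateral muscles of 7 DPI against at most 3.93 TPM in control muscle, and Mt1 in running rats lay above every control muscle (at most 3.56 TPM) at 7 and 14 DPI. Of the lists, the glucocorticoid-responsive genes (12 of 24), the nerve-supply genes (12 of 21) and the atrophy genes (10 of 26) had the most members called higher at 3 DPI in running rats relative to their size, beside 4.88% of all tested genes, and no fast-fibre gene was. These list counts are of values as deposited. The glucocorticoid-responsive, nerve-supply and atrophy lists share members such as Fbxo32, so their counts are not independent.

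A part of the matrix genes and most macrophage markers still lay above control muscle at 14 and 28 DPI, as Gsn did. In non-running contralateral muscle Gsn was 320 to 505 TPM at 14 DPI and 395 to 460 TPM at 28 DPI, above all 4 control muscles (at most 256 TPM), but at 7 DPI it was 217 to 644 TPM and met the control range. Between 3 and 14 DPI in running rats it changed by 0.92, under the fold limit. Col1a1 was 58.1 to 133 TPM at 14 DPI, and at 28 DPI it was 15.7 to 60.3 TPM and met the control range of 11.4 to 21.5 TPM. Counted over lists, 18 of 39 matrix genes (46.2%) and 16 of 23 macrophage markers (69.6%) had all 8 contralateral muscles of 14 and 28 DPI above all 4 control muscles, beside 5.27% of all tested genes. No interferon, neutrophil, glucocorticoid-responsive or nerve-supply gene had all 8 above all 4, and 1 of 26 atrophy genes did. Of the 791 genes higher in contralateral muscle at 3 DPI, 289 (36.5%) showed this, and of the 23 called against contralateral alone 5 (21.7%) did. The 791 and the 23 genes were selected as higher than the same 4 control muscles. Low control values can therefore raise their shares above the 5.27% of all tested genes. Their shares are a description and cannot show that a difference lasted. Of the 39 matrix genes, 11 were called higher at 3 than at 14 and 28 DPI. These later muscles share the rat series of the operated rats and differ from control rats in it as well as in the operation, and the part of each cannot be told apart.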

How the data were processed

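RNA was extracted from whole TA muscle and sequenced, and the values used are the deposited TPM, which the authors made with Kallisto on a GenBank-annotated rat genome. The table held 138 libraries, of which 13 under 7000 symbols above 1 TPM and 9 whose labels gave no single group were left out of all comparisons, none of them among the 18 muscles used. One incomplete row was left out of the table, leaving 16181 symbols. Values were tested as log2(TPM + 1), so fold changes of low genes are understated. limma 3.58.1 in R 4.3.3 was fitted with a mean-variance trend to 10 injured, 4 contralateral and 4 control muscles, with the state of the muscle and the repair arm as terms (14 residual degrees of freedom). Genes with a mean above 1 TPM in at least 1 group were tested (10934), with Benjamini-Hochberg adjustment over all of them. A list member could pass through injured muscle alone, so list shares are of the members that passed. Calls needed an adjusted p under 0.05 together with a log2 fold change beyond 1. A second model held 34 contralateral muscles and 9777 genes. Only the first model was tested on simulated data, for the difference between the references.

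Named genes were the 10 highest and 10 lowest called changes with groups that did not overlap in injured against contralateral and in contralateral against control muscle, the 6 with the largest difference between the references in each class, and members of 28 gene lists. Symbols of the form LOC were counted and not named. The members and lists were chosen with earlier results of these data known. Pairing came from 4 rats that gave both muscles. The within-rat correlation, estimated over all genes, was -0.07, and rat was used as a block in an alternative. Other alternatives were a pseudocount of 0.1 TPM, no filter, size factors, other models of the repair arm, control muscles averaged per rat, either arm alone and each muscle left out in turn. Samples are separate muscles, so p-values measure the spread between muscles, 4 of them from 2 control rats.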

Additional observations from a re-analysis of the deposited data

Results flagged for a closer look

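A highest or lowest muscle stood far from the rest of its group in 12 of 126 groups of 43 named genes (9.52%), where about 5% would be seen by chance. Contralateral NoRepair replicate 2 was the lowest of 4 in S100a9 (6.06 TPM), S100a8 (2.17 TPM), Lilrb4 (2 TPM), an inhibitory receptor of myeloid cells, and Fbxo32 (213.87 TPM). Control replicate 4 was the lowest of 4 in S100a9 (0.4 TPM), S100a8 (0.7 TPM), Phkg1 (255.97 TPM), a subunit of phosphorylase kinase, and Pafah1b3 (3.66 TPM). The remaining cases were control replicate 2 in Tnnt2 (1.76 TPM, highest), control replicate 3 in Mir3084d (3.5 TPM) and Mir1956 (6.86 TPM), where the other 3 control muscles were at 0, and 1 injured MMG muscle in Mir1956 (0 TPM, lowest of 10).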

How the results depend on the processing

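With a pseudocount of 0.1 TPM in place of 1, 2172 genes in place of 798 were called between contralateral and control muscle, 446 in place of 184 against control alone and 61 in place of 23 against contralateral alone, and the contralateral comparisons by day gave 852 (running rats) and 529 (non-running rats) in place of 516 and 236. With size factors the counts were 360 between the references, 80 against control alone, 273 in running rats by day (143 higher and 130 lower) and 90 in non-running rats (45 and 45). The share called higher in injured muscle was 59.2% with size factors and 84.6% as deposited against contralateral muscle, and 57.6% and 91.6% against control muscle. The non-repaired arm alone gave 419 genes between the references and 89 against control alone. The alternatives chosen after seeing the data, contralateral and control muscles alone with size factors and size factors without the control muscle with the fewest symbols, gave 269 and 319. With each muscle left out in turn, 503 (without control replicate 4) to 1071 genes were called between the references, 94 (without control replicate 4) to 271 against control alone, 13 (without control replicate 4) to 41 (without contralateral NoRepair replicate 2) against contralateral alone, 152 (without contralateral NoRepair replicate 1) to 423 (without contralateral NoRepair replicate 2) in non-running rats by day, 434 to 694 in running rats by day and 0 to 5 between the arms. The cause of these shifts was not tested.

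With rat as a replicate block, 4690 genes were called against contralateral muscle, 6333 against control muscle and 814 between the references, with 190 and 23 in the classes, and the 4 rats with both muscles gave 4946. Of the 43 genes named by rank or class, none changed direction under any alternative run in the comparisons they were named for. With a muscle left out, 22 of 990 of their calls were lost. List members outside these 43 were not part of this count. TPM values hold no depth, so counting error is unknown, and the 4 control muscles come from 2 rats.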
